A study of Mus musculus with 3 samples.

Results

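Cycling microglia of mouse gliomas were examined in the CD45+ sort, in which leukocytes had been collected by flow cytometry from dissociated tumors. A cell was taken as a microglia when its counts of P2ry12, Tmem119 and Gpr34 summed to at least 3, and as cycling when its counts of Mki67 and Top2a summed to at least 1. Counts are of unique molecular identifiers (UMIs), each of which stands for 1 captured mRNA molecule. Of 11218 CD45+ cells with at least 500 UMIs, at least 500 genes and at most 20% mitochondrial UMIs, 6263 met the microglial rule and 223 of these were cycling. The other 6040 were non-cycling by the rule. Members were thus chosen by the measured UMIs of these 5 transcripts, and the levels of these transcripts are a description and are not tested.

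Microglia are the resident macrophages of the brain parenchyma. They are held in a surveying state by signals such as TGF-beta and depend on the CSF1 receptor, and they renew themselves by division within the tissue. P2ry12 (an ADP receptor), Tmem119 and Gpr34 (a lysophosphatidylserine receptor) mark this homeostatic state. Mki67 encodes Ki-67, which coats mitotic chromosomes, and Top2a encodes the topoisomerase that untangles replicated DNA. Both transcripts accumulate from S phase to mitosis, so cells in G1 are largely missed by such a rule.

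The gliomas were driven by conditional overexpression of wild-type human EGFR in mice with Cdkn2a -/- alleles and a conditional luciferase reporter, among other engineered alleles, on a mixed strain background. Adult mice were injected in the striatum with a lentivirus that carried Cre, so transduced cells and their progeny alone should express the human gene, whereas every cell of these mice lacks Cdkn2a. Early, medium and large tumors (the large ones are called late here) gave 1 tumor sample each, as read from the library names, which carry 1 sample number per stage. Each was split into 4 CD45+ libraries over 3 sequencing runs, treated here as technical repeats. The study's methods speak of several samples per stage, with early ones pooled from animals, but the libraries could not be tied to animals here. Xist, the RNA of the inactive X chromosome in female cells, was at 303 CPM (UMIs of a gene per 1000000 UMIs of all genes) in the early microglia compared and had no UMI in the medium and late ones, so sex and stage cannot be told apart.

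The label was checked against markers that the rule did not use. The 9 other microglial markers, among them Cx3cr1, Sall1, Siglech, Fcrls, Olfml3, P2ry13, Selplg and Csf1r, summed to 17606 CPM in early, 10999 in medium and 10654 in late cycling microglia. The same sums were 19456, 12486 and 13902 CPM in non-cycling microglia of matched depth, and none of the 9 was at 0 in the cycling cells. At least 2 UMIs of these markers were found in 219 of the 220 cycling cells that had a depth match. Ptprc, which encodes CD45, had UMIs in 20 of 74 early, 22 of 84 medium and 19 of 65 late cycling cells, close to its level in non-cycling microglia (202, 198 and 188 against 203, 187 and 204 CPM). Cdkn2a had no UMI in any of the 223 cells, and 2 UMIs in the 6040 non-cycling cells. Human EGFR or iCre UMIs were found in 4 of the cycling microglia, 3 of them medium and 1 late.

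Markers of other lineages were also present in the cycling cells. At least 2 UMIs of T, NK, B, neutrophil, border macrophage, glioma or oligodendrocyte markers were found in 135 of the 223 (37 early, 61 medium and 37 late). Among depth-matched cells the share was 60% of 220 cycling and 52.7% of 639 non-cycling microglia. Of these lineages B-cell markers were the most frequent, with at least 2 UMIs in 71 of the 220 and 189 of the 639. The 8 neutrophil markers summed to 485, 10070 and 6203 CPM in early, medium and late cycling microglia and to 2176, 2372 and 756 CPM in the matched non-cycling cells. At least 2 neutrophil UMIs were carried by 2.70%, 3.70% and 1.54% of the cycling cells, 6 cells in all. The 12 monocyte or macrophage markers summed to 131, 840 and 1125 CPM in cycling and to 173, 377 and 547 CPM in non-cycling cells. The 10 T-cell markers summed to 146, 235 and 112 CPM against 96.9, 75.4 and 54.5 CPM. The 9 dendritic cell markers together were lower in cycling microglia in each sample, at 495, 216 and 384 CPM against 744, 424 and 624 CPM. At least 2 UMIs of these 9 were found in 66 of the 220 cycling and 268 of the 639 non-cycling microglia. Whether these UMIs came from dendritic cells or from the microglia themselves was not tested. Only 1 of these 9, Fscn1, had enough counts for the comparison of genes below. Barcodes of 60 cycling microglia were also found in another library, 11 of them in another CD45+ library of the same run, and 20 were among the highest 5% of doublet scores. Without the highest 5%, 72 of 74 early, 70 of 84 medium and 61 of 65 late cycling microglia remained. Of all microglia 3797 of 4028 early, 1014 of 1104 medium and 1075 of 1131 late cells remained. The part of doublets and free RNA in these UMIs was not tested. Several results are also given without the cells that carried at least 2 UMIs of the lineages named first, which do not include monocytes, macrophages outside the borders or dendritic cells.

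The share of cycling cells among microglia was compared between stages to ask when in tumor growth they divided. In the early sample 74 of 4028 microglia were cycling, or 1.84% (exact 95% Clopper-Pearson interval 1.45% to 2.30%). In the medium sample the share was 7.61% (84 of 1104, 6.11% to 9.33%), and in the late sample it was 5.75% (65 of 1131, 4.46% to 7.27%). The medium and late intervals lay above the early one and overlapped each other. These intervals cover counting error only, and with 1 tumor sample per stage no test between stages was possible. The 4 early libraries ranged from 1.74% to 1.90% and the 4 medium libraries from 6.67% to 9.57%. Of the late libraries, 3 lay between 4.77% and 6.90%, and the remaining one held 2 cycling cells among 6 microglia (33.3%). Without that library the late share was 5.60%.

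**Figure D1:**
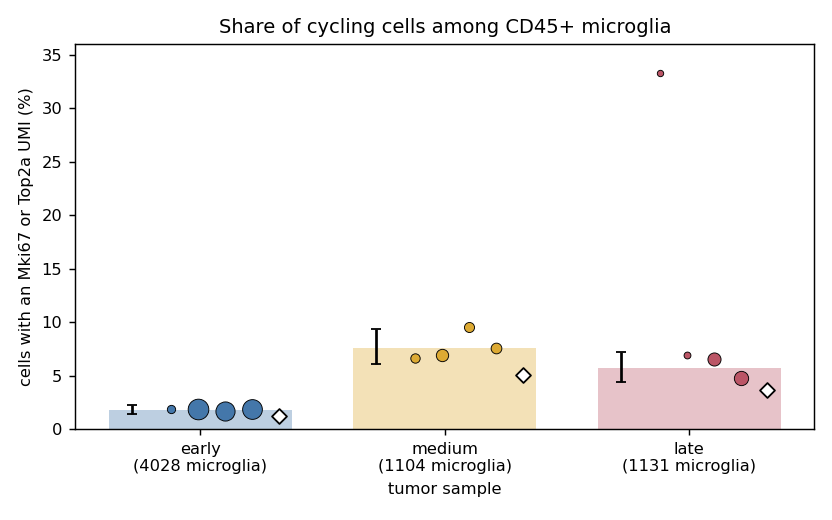
Percentage of microglia with an Mki67 or Top2a UMI (y axis) in the early, medium and late tumor samples (x axis). Bars are the share of each sample with its exact 95% interval (vertical line), and circles are its 4 libraries with area growing with the number of microglia. White diamonds are the expected share after every cell of at least 1000 UMIs was thinned to 1000 UMIs. All early libraries lie below all medium and late libraries, and the 33.3% circle is the library of 6 microglia.

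Shares of cells with a UMI grow with sequencing depth, and the cycling cells were deeper. Their median depth was 2351.5, 2638.5 and 3342 UMIs in the early, medium and late samples, against 1998, 1892 and 2013 UMIs in non-cycling microglia. When every cell of at least 1000 UMIs was thinned to that depth, the expected shares were 1.21%, 5.12% and 3.64%. Shallower cells were left out, here and in the other cell types thinned. This kept 3960 of 4028 early, 1104 of 1104 medium and 1092 of 1131 late microglia. Oligodendrocytes of the CD45- sort, which no longer divide once mature, served as a background from the other sort. In them an Mki67 or Top2a UMI was found in 0.907%, 1.01% and 4.13% of cells (median depth 2316, 2954 and 2711 UMIs), and after thinning in 0.458%, 0.465% and 1.55%. Cells with transgene UMIs and doublets were not left out of these oligodendrocytes, and whether some of them divided was not tested. The early, medium and late microglial shares were above those of oligodendrocytes before and after thinning, although the unthinned early and late intervals (1.45% to 2.30% and 4.46% to 7.27%) overlapped those of the oligodendrocytes (0.484% to 1.55% and 2.84% to 5.79%). Within the sequencing runs, the early share was 1.85%, 1.90% and 1.80%, the medium share 6.67%, 7.88% and 7.58%, and the late share 11.4% (4 of 35 cells), 6.56% and 4.77%. The medium share was above the late one in runs 2 and 3 and below it in run 1. Without cells that carried UMIs of other lineages, the shares were 1.44%, 4.27% and 4.29%, so that the order of medium and late was not kept. Other leukocytes of the same sort had higher shares. T cells were at 22.0%, 23.8% and 20.7%, monocytes or macrophages at 17.4%, 24.4% and 18.3%, and B cells at 25%, 33.8% and 25% (of 8, 68 and 12 cells) in the order of the stages. Neutrophils, which no longer divide once mature, were at 10.5%, 36% and 8.33% (of 38, 275 and 24 cells), and thinned to 1000 UMIs at 5.93%, 24.4% and 7.83%. The microglial shares were thus above those of oligodendrocytes and below those of neutrophils of the same sort, although the late neutrophil interval (1.03% to 27.0%) took in the microglial one. Whether the neutrophil UMIs came from dividing precursors, doublets or free RNA was not tested.

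How strongly each cycling cell carried the division programme was then described with transcripts the rule did not read. The S-phase list held 42 genes of DNA replication and the mitosis list 60 genes of G2 and M phase. Of every 10000 UMIs, cycling microglia had 26.4 from the S-phase list and 69.3 from the mitosis list, and matched non-cycling microglia had 8.23 and 5.83. At least 2 UMIs of both lists were found in 134 of the 223 cells, of the S-phase list alone in 18, of the mitosis list alone in 26, and of neither in 45. By stage, both lists were present in 47.3% of early, 64.3% of medium and 69.2% of late cycling cells. Neither list reached 2 UMIs in 32.4%, 15.5% and 12.3%. Thinned to 1000 UMIs per cell, the expected share of cells with at least 2 mitosis UMIs was 42.0%, 72.7% and 65.2%, and with at least 2 S-phase UMIs 36.2%, 48.3% and 49.3%.

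Much of this spread followed the number of Mki67 and Top2a UMIs. Exactly 1 such UMI was found in 98 cells and 2 or more, up to 28, in 125. Mki67 was detected in 120 cells, Top2a in 188 and both in 85. Cells with 1 UMI had 14.9 S-phase and 19.3 mitosis UMIs per 10000, and cells with 2 or more had 32.5 and 96.2. The 41 early cells with 1 UMI had 8.59 and 6.34, near the 7.67 and 4.83 of matched early non-cycling cells. In contrast, the 33 early cells with 2 or more UMIs had 32.0 and 102. With the stricter limit of 2 UMIs, the share of cycling cells was 0.819%, 5.07% and 3.18%, and both lists were present in 78.8%, 78.6% and 88.9% of these cells. Of the 6040 non-cycling microglia, which were not matched for depth here, 193 (3.20%) had at least 5 mitosis-list UMIs, compared with 132 of the 223 cycling cells. Whether the 193 were dividing cells, doublets or cells with free RNA was not tested.

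**Figure D2:**
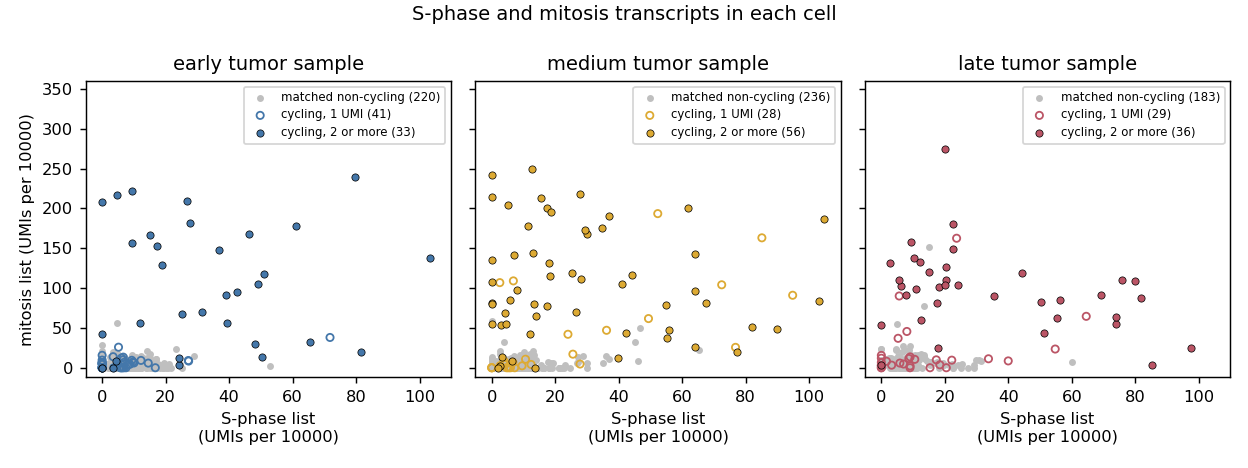
S-phase list UMIs (x axis) and mitosis list UMIs (y axis), both per 10000 UMIs, of every cycling microglia and its matched non-cycling cells, with a panel for each tumor sample. Grey points are non-cycling, open circles cycling with 1 Mki67 or Top2a UMI, and filled circles cycling with 2 or more; most of the 41 open circles of the early sample lie among the grey points, and filled circles reach 274 mitosis UMIs per 10000.

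At the limit of the microglial rule, 30 cycling cells had exactly 3 UMIs of P2ry12, Tmem119 and Gpr34, of which 1 was early, 17 medium and 12 late. They had 39.5 S-phase and 71.2 mitosis UMIs per 10000. Just outside, 60 cells with 2 such UMIs and at least 1 Mki67 or Top2a UMI had 30.8 and 63.7. Across all members the 3 microglial transcripts summed to a median of 7 UMIs per cell, with a range from 3 to 36.

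To ask what else differed in cycling microglia, UMIs were summed over the cycling and over the depth-matched non-cycling cells of each tumor sample and compared as 3 pairs. For each cycling cell up to 3 non-cycling microglia of the same library and nearest depth were taken, which matched 220 of the 223 cells with 639 others. The 6 sums held between 198001 and 716331 UMIs. Of 6382 genes tested with edgeR's quasi-likelihood test, 345 (5.41%) passed an adjusted p of 0.05. Of these, 243 (3.81% of the genes tested) were higher and 102 (1.60%) lower in cycling microglia. All 243 were higher in 3 of 3 tumor samples, and 99 of the 102 were lower in 3 of 3. A gene entered the test when at least 3 of the 6 sums reached 23.9 CPM. For 156 of the 243 higher and 12 of the 102 lower genes, fewer than 3 sums of the state with the lower level reached it. These genes thus entered the test only with the help of sums of the other state. Their calls support no difference, and for such genes named here levels are given as a description. The 3 cycling levels lay entirely above the 3 non-cycling levels for 684 genes (10.7%) and entirely below for 302 (4.73%). The median log2 fold change over all genes tested was -0.02. Sequencing run 2 alone gave 64 higher and 25 lower genes, and run 3 alone gave 82 and 32. A fit without the tumor sample as a block called 158 higher and 2 lower, and DESeq2 called 132 and 20. Without the medium tumor sample 83 and 11 genes passed, without the early one 208 and 51, and without cells carrying UMIs of other lineages 47 and 19 of the 2107 genes that could be tested.

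**Figure D3:**
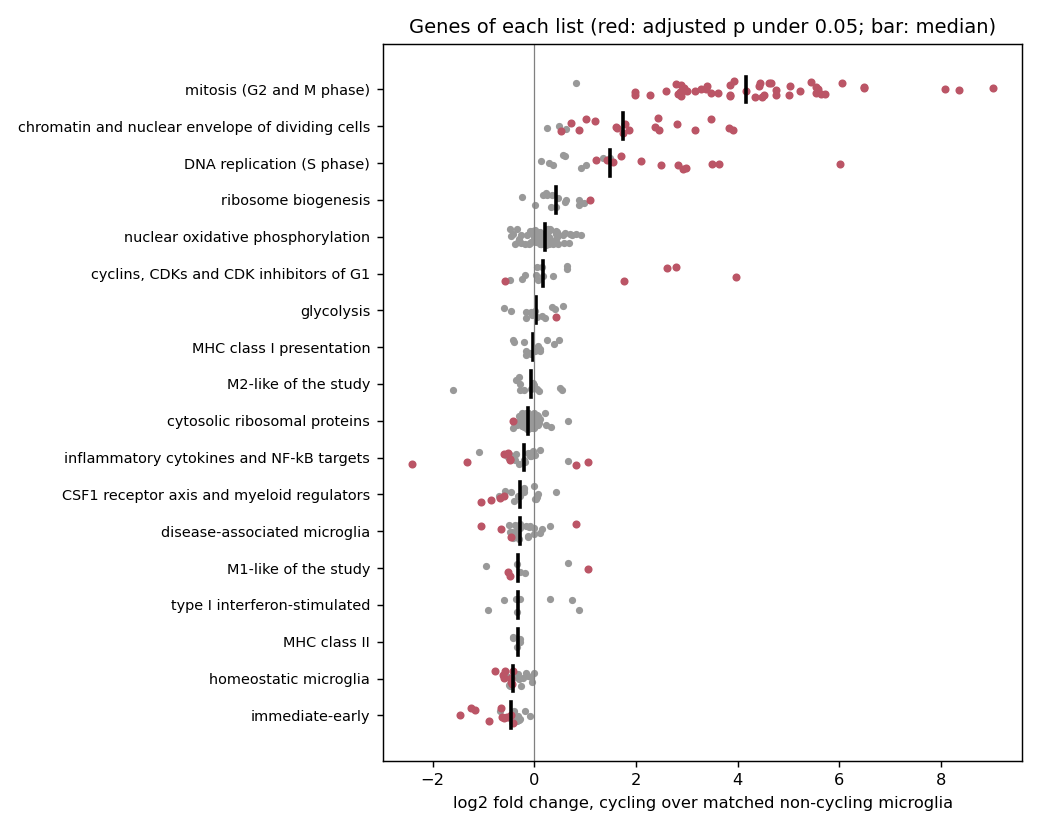
log2 fold change of cycling over matched non-cycling microglia (x axis) for the tested members of each gene list (rows). Each point is a gene, red where edgeR's adjusted p was under 0.05, and black bars are the list medians, which run from -0.46 for immediate-early genes to 4.16 for the mitosis list.

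Genes of G2 and mitosis differed most. Since Mki67 and Top2a chose the cells, these genes are given as a description. Of the 60 listed, 49 had enough counts, 48 of these passed in the higher direction and none in the lower, and their median log2 fold change was 4.16. Of the called genes, 46 of 48 in the mitosis list, 10 of 12 in the S-phase list and 6 of 18 in the chromatin list reached the count filter only because of the cycling sums, and 3 mitosis genes had no UMI in the non-cycling sums. The counts for the mitosis, S-phase and chromatin lists are therefore no support for a difference. Nusap1, a spindle-organizing protein, was at 197, 173 and 92.0 CPM in early, medium and late cycling microglia and had no UMI in any non-cycling sum. Counting 3 UMIs as the limit over the non-cycling group, this was at least 98.5-fold higher. Pbk, a mitotic kinase, was at 75.8, 131 and 76.0 CPM and also had no UMI in the non-cycling sums, which was at least 62.6-fold higher. Hmgb2, a chromatin protein and the most abundant member, was at 631, 879 and 552 CPM in cycling and 74.4, 101 and 87.9 CPM in non-cycling microglia, with no overlap between the groups. Tubb4b, a tubulin, was at 247, 328 and 408 CPM against 45.0, 44.7 and 36.4 CPM.

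The upstream sequences of these genes are shown because their members moved together and many are known to share short promoter elements. CCAAT is bound by NF-Y, and TTTGAA is the core of the CHR, through which the DREAM complex represses late cell-cycle genes in resting cells. RefSeq promoter windows of GRCm38 were found for 49 of the 60 mitosis genes, 32 of the 42 S-phase genes and 27025 genes in all, and the 250 bases before the start were searched on both strands. CCAAT was present in 77.6% of the mitosis windows and in 34.5% of all windows. TTTGAA was present in 30.6% and 16.3%, and both together in 28.6% and 5.73%. For E2F the word TTGGCGC, which can share its first letters with the reverse of CCAAT, was searched together with the words TTCCCGC as well as TTGCCGC and further TTCGCGC. At least 1 of these was present in 43.8% of the S-phase windows, 8.16% of the mitosis windows and 7.97% of all windows. CCAAT was also present in 56.2% of the S-phase windows, in 75% of those of the chromatin list and in 55% of those of the homeostatic list, whose genes were lower in cycling cells or did not pass, and TTTGAA in 31.2% of the chromatin windows. Such a match is a description and not evidence of binding. The 150 bases before the start are printed for both genes of the cycling rule, for the most abundant mitosis gene and for the S-phase gene with the largest fold change, with matches of any of these motifs, on either strand, in capitals.
Top2a: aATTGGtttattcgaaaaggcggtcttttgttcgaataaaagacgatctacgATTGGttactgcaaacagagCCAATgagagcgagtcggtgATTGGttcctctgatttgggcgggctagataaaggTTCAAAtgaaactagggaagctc
Mki67: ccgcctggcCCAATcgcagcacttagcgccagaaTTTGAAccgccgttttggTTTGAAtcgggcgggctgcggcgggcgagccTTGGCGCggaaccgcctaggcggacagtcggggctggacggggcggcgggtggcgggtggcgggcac
Hmgb2: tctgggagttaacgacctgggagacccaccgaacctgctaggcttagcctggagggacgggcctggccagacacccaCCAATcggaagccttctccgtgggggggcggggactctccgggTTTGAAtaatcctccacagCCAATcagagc
Rrm2: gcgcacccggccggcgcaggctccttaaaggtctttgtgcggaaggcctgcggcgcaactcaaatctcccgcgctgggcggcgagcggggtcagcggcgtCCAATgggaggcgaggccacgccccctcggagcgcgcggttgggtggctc
These stretches are chr11:99024190-99024339 on the minus strand (Top2a), chr7:135716380-135716529 on the minus strand (Mki67), chr8:57511693-57511842 on the plus strand (Hmgb2) and chr12:24708104-24708253 on the plus strand (Rrm2), each written 5′ to 3′ along its gene. The Top2a stretch held 4 CCAAT and 1 TTTGAA matches, that of Hmgb2 held 2 and 1, that of Mki67 held 1 CCAAT, 2 TTTGAA and 1 E2F match, and that of Rrm2 held 1 CCAAT match.

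Genes of DNA replication were higher by less. Of the 42 listed, 21 had enough counts and 12 passed, all higher, with a median log2 fold change of 1.48. Rrm2, the S-phase subunit of ribonucleotide reductase, was at 146, 173 and 236 CPM in cycling and at 0, 1.40 and 6.06 CPM in non-cycling microglia. Its partner Rrm1, which is less tied to S phase, was at 222, 231 and 268 CPM against 64.1, 48.9 and 50.004 CPM. The groups did not overlap for Rrm1. Rrm2 reached the count filter only because of the cycling sums, so its levels are a description. Slbp, which binds histone mRNA, was at 197, 243 and 204 CPM against 170, 94.9 and 150 CPM and did not pass (log2 fold change 0.61 ± 0.22 SE, adjusted p = 0.109 by edgeR). Of the 21 genes for chromatin and the nuclear envelope of dividing cells, 18 passed, all higher, with a median of 1.74. Tuba1b, an alpha-tubulin, was at 2096, 3065 and 3078 CPM in cycling microglia against 753, 801 and 1011 CPM. H2afx, the histone variant phosphorylated at DNA breaks, was at 152, 204 and 140 CPM against 12.1, 8.38 and 12.1 CPM.

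Outside these 3 lists 165 genes were higher, of which 94 reached the count filter only because of the cycling sums. Those 94 include the 12 described next, whose levels are a description. The 12 with the largest fold changes among those of at least 20 CPM were histone genes, genes of chromosome handling and Neil3. Cdca2, which recruits a phosphatase to chromosomes at mitotic exit, had 40 UMIs in the cycling and 1 in the non-cycling sums. This is a ratio of 111 with an exact 95% interval from 18.7 to 4473. The interval treats UMIs pooled over the tumor samples as independent draws. How far the tumors differed is left out of it, so it is a description too and lends no support to a difference. Aspm, a spindle-pole protein, had 38 and 1 UMIs. Neil3, a DNA glycosylase, was at 35.4, 69.4 and 56.0 CPM against 1.73, 1.40 and 1.52 CPM. Aspm and Neil3 were not called without the medium sample (edgeR's adjusted p of 0.132 and 0.0825), and neither were Hist1h2af, Hist1h2ai and Hist1h2ad (0.0741, 0.115 and 0.0686). Of the 12, 8 were replication-dependent H2A histone genes of the Hist1 cluster on chromosome 13, among them Hist1h2ap at 202, 262 and 148 CPM against 5.19, 5.58 and 12.1 CPM. These histone genes are near-identical copies, Hist1h2ah and Hist1h2an had the same counts in all 6 sums, and so the values of single copies are uncertain.

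Regulators of G1 were examined next. Of 26 listed genes 16 were tested, of which 4 passed in the higher direction and 1 fell (25% and 6.25% of those tested, beside 3.81% and 1.60% of all genes), with a median log2 fold change of 0.16. The 4 (Cdkn2c, Cdkn2d, Rbl1 and E2f1) reached the count filter only because of the cycling sums, so their levels are a description. Cdkn2c, which encodes the CDK4/6 inhibitor p18, was at 40.4, 61.7 and 36.02 CPM against 1.73, 1.40 and 4.55 CPM. Cdkn2d, which encodes the related inhibitor p19, was at 106, 65.5 and 112 CPM against 8.66, 12.6 and 16.7 CPM. Neither gene is the deleted Cdkn2a. Rbl1 is a pocket protein of the Rb family, and E2f1 a transcription factor that the family restrains. Btg1, an antiproliferative gene, fell by 0.58 on the log2 scale (SE 0.14, adjusted p = 0.00559 by edgeR), at 621, 466 and 464 CPM against 821, 738 and 638 CPM. Cdkn1a, which encodes p21, was at 753, 652 and 460 CPM against 528, 584 and 599 CPM and did not pass (adjusted p = 0.948 by edgeR). Btg1 was not called without the medium sample (0.227), without the early sample (0.0570) or without cells carrying UMIs of other lineages (0.267) by edgeR's adjusted p.

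Among the homeostatic genes tested some fell and none rose. Of 24 listed genes 22 were tested and 8 fell (Tgfbr1, Mertk, Sparc, Rnase4, Itgb5, Cst3, P2ry13 and Siglech), which is 36.4% beside 1.60% lower over all genes, with a median log2 fold change of -0.41 beside -0.02 over all genes tested. None of the 22 fold changes was positive, and 13 were negative in all 3 tumor samples. Cst3, which encodes the protease inhibitor cystatin C, was the most abundant member. It was at 26656, 12028.5 and 7748 CPM in early, medium and late cycling microglia and at 31674, 15779 and 14475 CPM in non-cycling ones, and it fell by 0.58 (SE 0.12, adjusted p = 0.00127 by edgeR). Within each tumor sample the cycling level was the lower one, whereas the levels of the groups overlapped across samples because the early sample was high in both. Mertk, a receptor for engulfing dying cells, was at 318, 131 and 256 CPM against 537, 251 and 359 CPM and fell by 0.78 (SE 0.17, adjusted p = 0.00185 by edgeR). P2ry13, an ADP receptor, fell by 0.62 (SE 0.15, adjusted p = 0.00559 by edgeR). The fractalkine receptor Cx3cr1 was at 4131, 2784 and 3130 CPM against 5295, 3247 and 3891 CPM and did not pass (adjusted p = 0.0605 by edgeR). P2ry12, used by the rule, was at 2404, 1068 and 1105 CPM in cycling and 3355, 1474 and 1700 CPM in non-cycling microglia. Gpr34, also of the rule, was at 970, 501 and 388 CPM against 1374.5, 616 and 677 CPM. Tmem119 of the rule was higher in early (1116 against 1033 CPM) and medium cycling cells (786 against 709 CPM) and lower in late ones (676 against 912 CPM). Without the tumor sample as a block 0 genes of the list were called (edgeR's adjusted p from 0.420 to 0.822 for Cst3, Mertk, P2ry13 and Tgfbr1), and DESeq2 called 1 gene of the list lower. With a microglial rule of at least 5 UMIs 2 genes of the list were called lower and its median was -0.42. Without cells carrying UMIs of other lineages 1 gene was called lower and the median was -0.36, and Mertk (0.466), Tgfbr1 (0.198) and P2ry13 (0.0965) were not called by edgeR's adjusted p. Without the medium sample 0 were called (edgeR's adjusted p from 0.166 to 0.271 for the same 4 genes), without the early sample Mertk was not (0.0635), and without the late sample neither Cst3 (0.286) nor P2ry13 (0.133) was.

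Regulators of myeloid identity and growth factor signaling were described alongside. Of 22 listed genes of the CSF1 receptor axis and myeloid regulators 19 were tested, none rose and 4 fell (21.1%, beside 1.60% lower over all genes, among them Tgfbr1, Csf1 and Cebpa), with a median log2 fold change of -0.29. Csf1, the growth factor for the CSF1 receptor, was at 40.4, 69.4 and 120 CPM against 121, 170 and 158 CPM, with no overlap, and fell by 1.05 (SE 0.27, adjusted p = 0.0103 by edgeR). Cebpa, a myeloid transcription factor, fell by 0.67 (SE 0.18, adjusted p = 0.0128 by edgeR). Without the early sample Csf1 (0.1198) and Cebpa (0.231) were not called by edgeR's adjusted p, and without the medium sample both stood at 0.362. Without cells carrying UMIs of other lineages Cebpa was not called (0.801). The receptor itself, Csf1r, was at 4742, 3150 and 2437 CPM against 5048, 3512 and 3484 CPM and did not pass (adjusted p = 0.129 by edgeR). Irf8, which specifies microglia, was at 672, 709 and 560 CPM against 597, 658 and 532 CPM (adjusted p = 0.909 by edgeR).

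**Figure D4:**
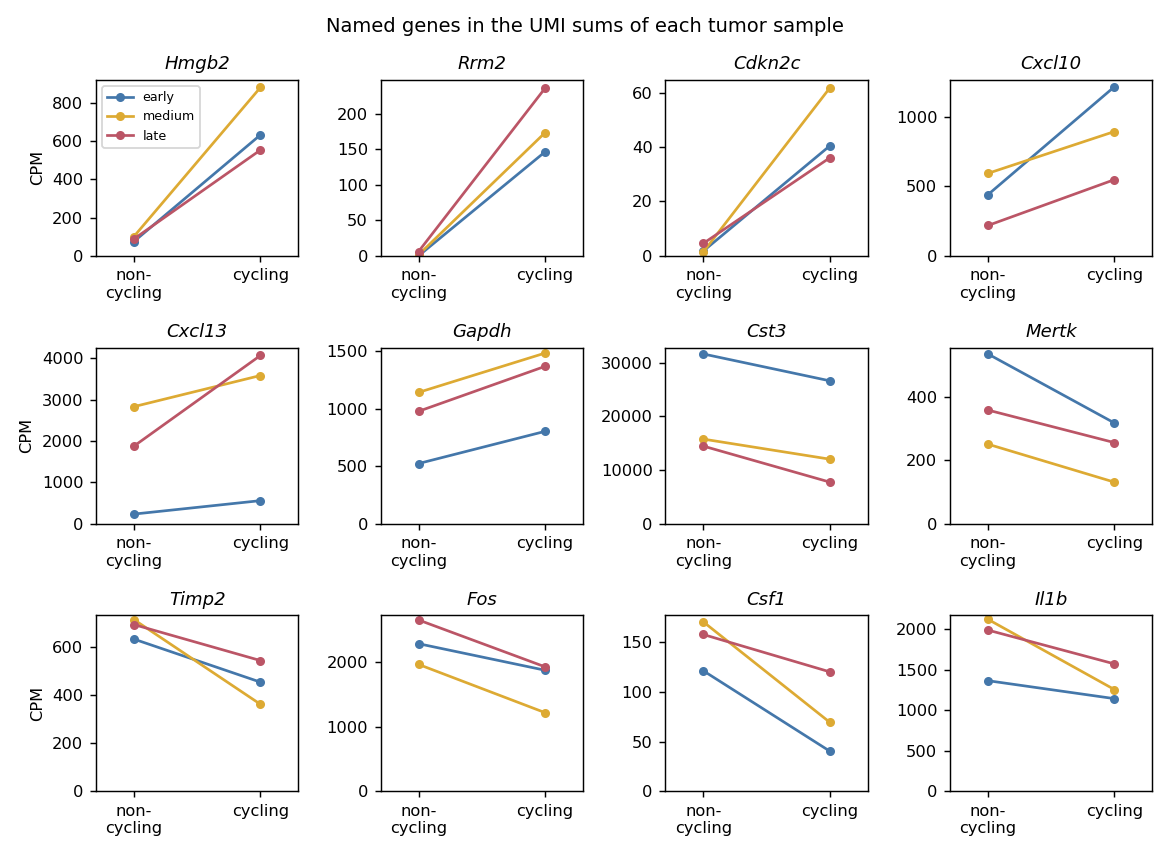
Level of 12 named genes (y axis, CPM from 0) in the non-cycling and cycling sums (x axis) of the early, medium and late tumor samples, joined by a line for each sample. In all 3 samples Hmgb2, Rrm2, Cdkn2c, Cxcl10, Cxcl13 and Gapdh are higher, and Cst3, Mertk, Timp2, Fos, Csf1 and Il1b lower, in cycling microglia.

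Immediate-early and heat-shock genes, which respond within minutes to stimulation and also to tissue dissociation, fell in part. All 23 listed genes were tested and 10 fell (Ier3, Btg2, Fos, Egr2, Zfp36, Junb, Rhob, Jund, Hspa1b and Hspa1a), which is 43.5% beside 1.60% lower over all genes, none rose, and the median log2 fold change was -0.46. Fos, an AP-1 subunit, was at 1869, 1214 and 1921 CPM in cycling and 2278, 1959 and 2644 CPM in non-cycling microglia. The groups did not overlap, and Fos fell by 0.54 (SE 0.13, adjusted p = 0.00334 by edgeR). Hspa1a, an inducible HSP70 gene, was at 263, 84.8 and 72.0 CPM against 718, 233 and 167 CPM and fell by 1.46 (SE 0.19, adjusted p = 3.99e-07 by edgeR). Its near-identical copy Hspa1b fell by 1.24 (SE 0.18, adjusted p = 1.96e-06 by edgeR), and reads may have been split between the copies. Both were highest in the early sample in either state. Egr2, a zinc-finger factor, was at 50.5, 135 and 108 CPM against 248, 165 and 235 CPM. Without the early sample Egr2 was not called (adjusted p = 0.134 by edgeR), and without the medium sample Fos was not (0.129). Junb, the most abundant AP-1 gene here at 2157, 1866 and 2121 CPM against 2540, 2095 and 3284 CPM, was not called when any 1 sample was left out (edgeR's adjusted p from 0.119 to 0.468). DESeq2 called 6 of the listed genes lower, and without the tumor sample as a block 0 were. Without cells carrying UMIs of other lineages neither Hspa1a (0.113) nor Hspa1b (0.0884) nor Fos (0.106) nor Egr2 (0.201) nor Junb (0.319) was called by edgeR's adjusted p, and 4 of the listed genes were called lower.

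Inflammatory genes moved in both directions. Of 33 listed cytokines and NF-kB targets 29 were tested, 2 rose (Cxcl10 and Cxcl13) and 6 were lower (Il1b, Il1a, Ccl7, Cd14, Cxcl2 and Bcl2a1b), with a median log2 fold change of -0.21. These shares were 6.90% and 20.7%, beside 3.81% and 1.60% over all genes. Without the early sample 1 gene was higher and 1 lower, and without the tumor sample as a block 0 were called. Cxcl10, an interferon-induced chemokine for T cells, was at 1217, 894 and 548 CPM in cycling and 440, 593 and 218 CPM in non-cycling microglia. It rose by 1.05 ± 0.16 (SE, adjusted p = 1.86e-05 by edgeR) and was higher in 3 of 3 samples. Cxcl13, a B-cell chemokine, was at 556, 3582 and 4066 CPM against 230, 2828 and 1873 CPM and rose by 0.81 ± 0.16 (SE, adjusted p = 0.00185 by edgeR). Without the early sample Cxcl13 was not called (adjusted p = 0.0834 by edgeR), and without cells carrying UMIs of other lineages it stood at 0.716. Cxcl10 was not called with 1 matched cell per cycling cell (0.293) or in run 2 alone (0.180). Il1b, the interleukin-1 beta gene, was at 1141, 1253 and 1569 CPM against 1362, 2118 and 1985 CPM and fell by 0.52 (SE 0.13, adjusted p = 0.00821 by edgeR). Cxcl2, a neutrophil chemokine, was at 55.6, 96.4 and 68.0 CPM against 175, 112 and 276 CPM and fell by 1.33 (SE 0.28, adjusted p = 0.00217 by edgeR). Ccl7, a monocyte chemokine, had its 7 cycling UMIs in the early sample. It reached the count filter in 1 cycling and 2 non-cycling sums and is given as a description. Leaving out the early or medium sample ended the call of Il1b (adjusted p = 0.0589 and 0.253 by edgeR), and leaving out the early or late sample that of Cxcl2 (0.0692 and 0.0642). Ccl7 was not called without the medium or late sample (0.222 and 0.109), and Il1a was not when any 1 sample was left out (0.164 to 0.253) or without cells carrying UMIs of other lineages (0.403). Ccl4, the most abundant member, was at 3338, 3393 and 1893 CPM against 3478, 3117 and 1979 CPM (adjusted p = 0.84 by edgeR).

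Of the 14 genes that the study used as M1-like, 8 were tested, of which Cxcl10 rose and Il1b and Il1a fell (12.5% and 25%, beside 3.81% and 1.60% over all genes), with a median of -0.32. Of 25 genes of its M2-like list, taken without Ccl13 and Ccl18, 13 were tested and none passed with edgeR or DESeq2 in the comparison as described (3 lower at an unadjusted p under 0.05), with a median of -0.07. With at least 2 Mki67 or Top2a UMIs 3 were called lower by edgeR, and with every gene of at least 1 count kept 2 were. Over all genes these fits called 139 of 4253 and 211 of 21184 lower. The cathepsin genes Ctsd and Ctsb, the most abundant of these, had adjusted p of 0.215 and 0.17 by edgeR. With edgeR or DESeq2 no member of the interferon, MHC class I or MHC class II lists passed in that comparison either, and at an unadjusted p under 0.05 there were 1 higher and 2 lower, 1 higher and 1 lower, and 0 higher and 1 lower. For type I interferon-stimulated genes, 8 of 24 were tested with a median of -0.32. In MHC class I presentation, 14 of 15 were tested with a median of -0.03, and B2m, the light chain of class I, was at 3020, 4114 and 1609 CPM against 3083, 5052 and 1729 CPM. For MHC class II, 6 of 7 were tested with a median of -0.32. Cd74, the class II invariant chain, was at 2646 CPM in cycling and 1979 CPM in non-cycling microglia of the early sample. It was lower in cycling cells of the medium (6165 against 9283 CPM) and late samples (1813 against 3255 CPM), so the direction was not shared. Other edgeR fits called some members. For MHC class II 3 were lower without the early sample and 2 with every gene of at least 1 count kept. For MHC class I 1 was higher without TMM and without the highest doublet scores, and 1 was higher and 1 lower with at least 2 Mki67 or Top2a UMIs. For the interferon list 1 was higher without the late sample and without depth matching. With a microglial rule of at least 5 UMIs the medians of the class II and interferon lists were 0.06 and 0.12, opposite in sign to those above.

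The disease-associated state is one that microglia adopt around lesions and tumors. Of 26 listed genes 24 were tested and 4 passed (16.7%, beside 5.41% of all genes), of which Fabp5 was higher and Csf1, Timp2 and Cd9 fell, with a median log2 fold change of -0.29. Fabp5, a fatty acid-binding protein, was at 45.5, 316 and 336 CPM in cycling and 12.1, 135 and 258 CPM in non-cycling microglia. It is given as a description, since only 2 non-cycling sums reached the count filter. Timp2, a metalloproteinase inhibitor, was at 455, 362 and 544 CPM against 634, 715 and 694 CPM, without overlap, and fell by 0.67 (SE 0.15, adjusted p = 0.00247 by edgeR). It was not called without the medium sample (0.274) or without cells carrying UMIs of other lineages (0.593) by edgeR's adjusted p. Apoe, a lipid carrier and the most abundant member, was at 2409, 5864 and 12218.5 CPM against 2154, 9891 and 18901 CPM and did not pass (adjusted p = 0.0572 by edgeR). With at least 2 Mki67 or Top2a UMIs per cycling cell, 0 genes of the list were higher and 10 lower, with a median of -0.58. Of all 4253 genes tested in that fit, 244 were called higher and 139 lower. With DESeq2, without the medium sample, with a microglial rule of at least 5 UMIs, and without cells carrying UMIs of other lineages, 0 were higher and 0 lower. When all non-cycling microglia were used without depth matching, the list median was 0.21, so its direction depended on matching.

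Of 85 cytosolic ribosomal protein genes 81 were tested, none rose and 1 fell (Rps27), with a median of -0.13. That is 1.23% of those tested, below the 1.60% lower over all genes. For ribosome biogenesis, 15 of 25 were tested and Pa2g4, a nucleolar growth regulator, rose by 1.09 ± 0.28 (SE, adjusted p = 0.00947 by edgeR), at 116, 123.4 and 168 CPM against 36.4, 62.8 and 84.9 CPM. It was not called without the early (0.133) or the medium sample (0.165) or without cells carrying UMIs of other lineages (0.200) by edgeR's adjusted p. The median of the tested biogenesis genes was 0.42, and 14 of the 15 fold changes were positive. None of 75 tested nuclear genes of oxidative phosphorylation passed with edgeR or DESeq2 in the comparison as described (8 higher and 1 lower at an unadjusted p under 0.05), with a median of 0.20 and 54 positive fold changes. Without depth matching edgeR called 5 higher, with at least 2 Mki67 or Top2a UMIs 1 and in run 3 alone 1. Of 14 glycolysis genes tested 1 passed (7.14%), as 1 of the 15 biogenesis genes had (6.67%), shares near the 5.41% over all genes. In the glycolysis list Gapdh rose by 0.42 ± 0.13 (SE, adjusted p = 0.0425 by edgeR), at 803, 1484 and 1369 CPM against 523, 1142 and 977 CPM. Neither Rps27 nor Gapdh passed when any sample was left out (edgeR's adjusted p from 0.113 to 0.285 and from 0.183 to 0.369) or without cells carrying UMIs of other lineages (0.548 and 0.180). Gapdh has many processed copies in the genome, with which reads may be shared.

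The 12 lower genes outside the division lists with the largest fold changes were Cyp4v3, Ccl7, Dnajb9, Hsph1, Helz, Mmp2, Ndfip2, Hspa1a, Akirin1, Cxcl2, Rtn1 and Adap2. Of these, Cyp4v3, Dnajb9, Hsph1, Helz, Mmp2, Ndfip2 and Rtn1 reached the count filter only because of the non-cycling sums and are given as a description. Ccl7 reached it in 1 cycling and 2 non-cycling sums and is a description too. Dnajb9, an endoplasmic reticulum co-chaperone induced by the unfolded protein response, was at 45.5, 46.3 and 4.00 CPM in cycling and 189, 89.3 and 78.8 CPM in non-cycling microglia. Cyp4v3, a fatty acid hydroxylase, was at 20.2, 0 and 12.01 CPM against 72.7, 55.8 and 39.4 CPM. Hsph1, an HSP110 chaperone, was at 20.2, 19.3 and 8.004 CPM against 96.9, 33.5 and 24.2 CPM. Mmp2, a gelatinase, was at 35.4, 11.6 and 28.01 CPM against 58.9, 64.2 and 84.9 CPM. Groups overlapped for Ccl7 and Hspa1a and for none of the other 10, beside 4.73% of all genes that lay entirely below. The 12 were chosen as the largest falls with 1 direction in 3 of 3 samples, so the lack of overlap is a description. Leaving out the medium sample ended the call of 9 of the 12, all but Dnajb9, Hspa1a and Cxcl2 (edgeR's adjusted p from 0.131 to 0.402). Leaving out the early sample ended that of Dnajb9, Hsph1, Helz, Ndfip2, Cxcl2 and Rtn1 (0.05 to 0.446), and leaving out the late sample that of Ccl7, Hsph1, Helz, Mmp2, Cxcl2 and Rtn1 (0.0642 to 0.248). Without cells carrying UMIs of other lineages neither Akirin1 (0.536) nor Adap2 (0.851) was called by edgeR's adjusted p.

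Of 26 tested markers of other cell types 4 passed (15.4%, beside 5.41% of all genes). Trac, a T-cell receptor gene, was at 35.4, 42.4 and 32.0 CPM against 10.4, 9.77 and 4.55 CPM, and Plac8, a monocyte marker, at 35.4, 123.4 and 88.0 CPM against 19.0, 37.7 and 6.06 CPM. Both reached the count filter only because of the cycling sums. Arg1, an arginase of recruited macrophages, was lower and reached the filter in 1 cycling and 2 non-cycling sums, so its call is a description. Fscn1 of the dendritic cell list fell. The transcript of human EGFR (hsEGFR), the transgene of the tumor cells, was at 0, 34.7 and 8.004 CPM against 0, 199.6 and 54.5 CPM. Few cells carried it. Over all non-cycling microglia of the medium sample its 145 UMIs lay in 5 of 1020 cells, and the share of cells with a UMI was 2.38% in cycling and 0.490% in non-cycling cells of the medium sample and 1.54% and 0.938% in the late one. Trac, Plac8, Arg1 and Fscn1 were named after their values were seen. None of the 7 neutrophil markers tested passed in either direction. The part of such cells in the other results was not tested beyond the fits without cells carrying UMIs of other lineages.

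Stages were set side by side within cycling microglia, without a test, since each stage is 1 tumor sample. Homeostatic genes were lower in the medium and late samples than in the early one. All 22 with at least 10 UMIs were lower in late than in early cycling cells, with a median log2 ratio of -0.69, and all 22 were lower in medium than in early cells, with a median of -0.76. In non-cycling microglia the medians were -0.40 and -0.70. From medium to late the median was 0.02 in cycling (12 of 22 higher) and 0.19 in non-cycling microglia (17 of 23 higher). Disease-associated genes were higher, with a late over early median of 1.08 in cycling and 1.19 in non-cycling microglia. Apoe was at 2409 CPM (exact Poisson interval 2198 to 2635) in early, 5864 (5573 to 6166) in medium and 12218.5 (11789 to 12660) in late cycling microglia. MHC class II genes were highest in the medium sample in both states, with a medium over early median of 1.58 in cycling and 2.23 in non-cycling cells. From early to late their median was -0.61 in cycling and 0.68 in non-cycling microglia. The median over all genes lay between -0.10 and 0.05 in the comparisons with the early sample and was 0.05 in cycling and 0.12 in non-cycling microglia from medium to late.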

How the data were processed

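Dissociated gliomas were sorted on CD45 and profiled by inDrop. The authors deposited raw UMI counts per gene and cell, made with RapMap in bcbio-nextgen on a GRCm38 transcriptome with the transgenes added (the submitters' processing notes name mm10), and a cell annotation that gave library, stage and sort. The study's methods describe steps that removed ambient RNA and doublets. Whether these steps preceded the deposited counts is not given in the sources used here.

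Of 20811 deposited cells 17894 passed the filters. CD45+ libraries held 62320 to 4235020 UMIs. Members and gene lists were chosen with earlier results of these data known. Cycling cells were matched with up to 3 non-cycling microglia of the same library within 0.25 log2 units of depth. Counts summed per tumor sample and state were compared with edgeR 4.0.16 in R 4.3.3 (TMM, filterByExpr, robust quasi-likelihood test, tumor sample as block, 2 residual degrees of freedom, two-sided, Benjamini-Hochberg adjustment), without the 5 genes of the rule. The states of a sample were cells of the same tumor and deviated together (correlations 0.333, 0.255 and 0.243 over 6382 genes). The p-values rest on 3 tumor samples. Each SE is the absolute log2 fold change divided by the square root of the test's F statistic. It was not estimated apart from the test. Levels are CPM of the summed counts, not divided by transcript length. Shares have exact 95% binomial intervals and levels exact Poisson intervals.

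Named genes were the 12 highest and 12 lowest called genes outside the division lists, of at least 20 CPM and with 1 direction in 3 of 3 samples, and of each list the 3 called members with the largest change and the 2 most abundant. Mitochondrial, sex-linked and unnamed genes were left out of the first group. Alternatives covered DESeq2 1.42.0, scaling, filters, matching, the rules for cells, runs, doublet scores (Scrublet in scanpy 1.11.5) and each tumor sample left out. Promoters were RefSeq windows of GRCm38.p6. Some genes and alleles that these rules name are not reported here.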

Additional observations from a re-analysis of the deposited data

Results flagged for a closer look

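One library of the late tumor sample, with 2 cycling cells among 6 microglia (33.3%), stood apart from the other 3 late libraries. Its exact 95% interval, from 4.33% to 77.7%, took in the shares of those 3. By its level, the rule that flagged it sets a value apart by chance in about 1 of 20 groups of like values. The late libraries held from 6 to 608 microglia, so that rate need not hold here.

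For several gene lists the summed CPM of cycling over matched non-cycling microglia lay above 1 in a tumor sample and below 1 in another, with intervals that covered counting error only. The difference between samples was not tested. For MHC class II genes the early ratio was 1.38, whereas the medium and late ratios were 0.720 and 0.545. For type I interferon-stimulated genes the 3 ratios were 1.55, 0.861 and 0.673, and for the M1-like genes of the study 1.13, 0.742 and 0.916. For MHC class I presentation it was 1.10 in the early and 0.871 in the medium sample. For G1 regulators it was 1.26 in the early and 0.879 in the late sample. Cytosolic ribosomal protein genes were at 0.927 and 0.921 in the early and medium samples and at 1.05 in the late one.

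Cells of the CD45- sort that met the microglial rule were in no comparison of cycling with non-cycling microglia. Among them 7 of 85 medium cells (8.24%) and 16 of 70 late cells (22.9%) met the cycling rule. In the early sample 2 of 261 did (0.766%). Of the 16 late cells, 14 carried a transgene UMI.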

How the results depend on the processing

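The counts of 243 higher and 102 lower genes moved with most choices. They were 132 and 20 with DESeq2, 137 and 45 with 1 matched cell per cycling cell, 408 and 255 without depth matching, 131 and 34 with a microglial rule of at least 5 UMIs, 64 and 25 in run 2, 82 and 32 in run 3, and 47 and 19 without cells carrying UMIs of other lineages. Leaving out a tumor sample gave 83 to 238 higher and 11 to 92 lower. Keeping every gene with at least 1 count gave 211 lower. Library totals without TMM gave 284 and 78, so the share of higher calls went from 70.4% to 78.5%. Without the tumor sample as replicate block there were 158 and 2. None of the 62 called genes taken by the naming rule changed direction in the alternatives that tested it. Of them, 31 were tested without cells carrying UMIs of other lineages, 37 in run 3, 41 in run 2 and 49 with 1 matched cell. These genes were chosen because they were called, and the alternatives used largely the same cells. Their kept directions are therefore no independent support.

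With at least 2 Mki67 or Top2a UMIs the early, medium and late shares were 0.819%, 5.07% and 3.18%, and 78.8%, 78.6% and 88.9% of cycling cells had both division lists, an alternative for the latter that was chosen after seeing the data, as was leaving out cells with transgene UMIs. Without cells carrying UMIs of other lineages the shares were 1.44%, 4.27% and 4.29%, thinned to 1000 UMIs 1.21%, 5.12% and 3.64%, and in run 1 the late share was 11.4%. Fewer cells or genes entered the fits of single runs and stricter rules. For the other settings the cause was not tested. With 1 tumor sample per stage, no stage difference could be tested.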
